A study of Mus musculus with 3 samples.

Results

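The von Willebrand factor receptor of platelets, the GPIb-IX-V complex, is encoded by 4 genes, and reads of FLI1 and RUNX1 chromatin immunoprecipitation (ChIP-seq) and of input DNA were counted at each of them in mature megakaryocytes (MK), the cells that release platelets. The members *Gp1ba*, *Gp1bb*, *Gp9* and *Gp5* were chosen by name, as the subunits of this receptor, and all 4 were found among the 22367 protein-coding genes of GENCODE M1 on mouse build mm9. The cells came from wild-type CD1 fetal livers, of embryonic day 15 by the sample labels and a day earlier by the methods, and were cultured for 5 days in thrombopoietin. Cells with TER119, GR1 or CD11b were then depleted, and large cells were collected over albumin gradients. Each of FLI1, RUNX1 and input has 1 library, and the labels give each as a pool of 3 or more replicates. There are therefore no replicates, no test was made between libraries, and every interval below is an exact 95% interval that covers counting error only. The libraries hold 62946422 FLI1, 3973856 RUNX1 and 21745220 input reads after mitochondrial reads and repeated positions were left out, so 1 read is worth 0.0159 reads per 1000000 reads of the library (RPM) in FLI1 and 0.252 RPM in RUNX1. The RUNX1 file holds far fewer reads than the study's own list of libraries gives for RUNX1 in mature MK, so low or absent RUNX1 counts below describe this file and not the whole of the study's RUNX1 data. The methods name an input control of chromatin cut with micrococcal nuclease and sonication for the FLI1 and RUNX1 precipitates, whereas the labels name sonication alone, and a difference between ChIP and input cannot be told apart from a difference in fragmentation.

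The receptor holds platelets to von Willebrand factor on injured vessel walls under fast flow. GPIbα, the product of *Gp1ba*, carries the binding site for von Willebrand factor, GPIbβ (*Gp1bb*) is linked to it by disulfide bonds and GPIX (*Gp9*) and GPV (*Gp5*) associate with them without such bonds. All of the subunits are membrane proteins with leucine-rich repeats, and loss of GPIbα, GPIbβ or GPIX causes Bernard-Soulier syndrome, in which platelets are few and large. FLI1 is an ETS factor that binds DNA around a GGAA core, RUNX1 binds sites such as TGTGGT, and both are required for normal platelet production.

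In mm9, *Gp1ba* spans chr11:70452624-70456328 and *Gp9* spans chr6:87728130-87729756, both read from the plus strand. *Gp5* (chr16:30307772-30310865) and *Gp1bb* (chr16:18620412-18622496) share a chromosome and are both read from the minus strand. The DNA just before the transcription start sites (TSS) of *Gp1ba*, *Gp9* and *Gp5* is shown because the highest FLI1 coverage within 2 kb of each of these TSS lies in it. Each sequence is the 200 bases before the TSS in mm9, written 5′ to 3′ on the strand of the gene, with matches to the motifs searched in capitals. Both strands were searched. An ETS match was the motif CCGGAAG, or else the motif CCGGAAA, the motif CAGGAAG or the motif CAGGAAA. For RUNX a match was the motif TGTGGT or else the motif TGCGGT. For GATA factors a match was the motif AGATAA, or else the motif AGATAG, the motif TGATAA or the motif TGATAG. The shared core of NF-E2 and AP-1 sites was searched as TGAGTCA, and matches of different families may overlap.
Gp1ba, chr11:70452424-70452623, plus strand: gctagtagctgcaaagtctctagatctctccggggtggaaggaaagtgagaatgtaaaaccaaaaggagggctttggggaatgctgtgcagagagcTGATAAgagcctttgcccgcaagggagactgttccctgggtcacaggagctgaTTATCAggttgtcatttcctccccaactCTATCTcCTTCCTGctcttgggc
Gp9, chr6:87727930-87728129, plus strand: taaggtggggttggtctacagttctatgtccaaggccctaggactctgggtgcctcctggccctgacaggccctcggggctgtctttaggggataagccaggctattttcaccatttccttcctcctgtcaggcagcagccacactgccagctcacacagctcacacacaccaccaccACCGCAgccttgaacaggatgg
Gp5, chr16:30310866-30311065, minus strand: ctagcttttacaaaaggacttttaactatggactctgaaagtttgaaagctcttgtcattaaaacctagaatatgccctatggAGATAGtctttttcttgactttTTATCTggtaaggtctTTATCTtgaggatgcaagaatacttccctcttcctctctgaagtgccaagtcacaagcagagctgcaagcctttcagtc
For *Gp1bb* the DNA before the annotated TSS is exon of *Sept5*, a septin gene on the same strand, and its FLI1 summit lies inside its own first exon, so only 30 bases beside that summit are shown, around a GATA match.
Gp1bb, chr16:18621798-18621827, minus strand: ggcgatagtaccCTATCTgccttcgcaacg

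FLI1 reads within 2 kb of the TSS exceeded input at all 4 genes after scaling to library depth. *Gp5* held 462 FLI1 reads (7.34 RPM, 6.69 to 8.04) and 38 input reads (1.75 RPM), which gave 4.20 times the input level (3.01 to 6.01). *Gp1ba* held 455 FLI1 reads (7.23 RPM, 6.58 to 7.92) and 58 input reads (2.67 RPM), a ratio of 2.71 (2.06 to 3.63). *Gp9* held 406 FLI1 reads (6.45 RPM, 5.84 to 7.11) and 53 input reads (2.44 RPM), a ratio of 2.65 (1.98 to 3.59). These 3 genes had FLI1 RPM above that of *Gp1bb*, beyond counting error, whereas the ratio intervals of *Gp1ba* and *Gp9* overlapped that of *Gp1bb*. *Gp1bb* held 280 FLI1 reads (4.45 RPM, 3.94 to 5.001) and 62 input reads (2.85 RPM), a ratio of 1.56 (1.18 to 2.09). In the order of the ratios, *Gp5*, *Gp1ba*, *Gp9*, *Gp1bb*, the intervals of neighbours overlapped each time, whereas those of *Gp5* and *Gp1bb* did not. Within 1 kb of the TSS the order changed, with *Gp1ba* highest at 5.70, then *Gp5* at 4.56, *Gp9* at 4.25 and *Gp1bb* at 2.43. Input reads there numbered 22 at *Gp1ba* and 21 at *Gp5*, and whether this change exceeds counting error was not tested. A ratio of 1.5 was then reached by 4 of 4 members and by 48% of all genes.

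A ratio of at least 1.5 with at least 5 ChIP reads was used as the call. For FLI1 it was reached by 4 of 4 members and by 40.7% of the 21348 protein-coding genes with at least 10 input reads in the window. The call at *Gp1bb* was lost, leaving 3 of 4, with the TSS of its shorter transcript (1.47) and with plus-strand reads alone (1.32), where 41.2% of all genes reached it. The median FLI1 ratio of all genes was 1.28. Of them, 592 had a higher ratio than *Gp5*, 2693 a higher one than *Gp1ba*, 2863 a higher one than *Gp9* and 8229 a higher one than *Gp1bb*. By FLI1 reads alone, 97.8% of genes lay below *Gp5* and 84.2% below *Gp1bb*. The input was itself high at *Gp1bb*, above that of 95.1% of genes, and at *Gp5* it was above that of 42.5%.

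**Figure D1:**
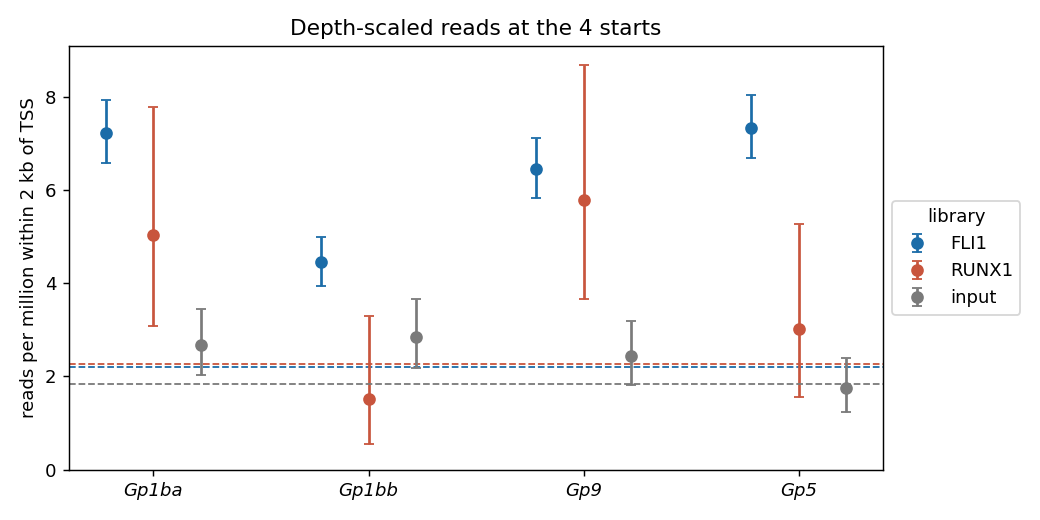
RPM within 2 kb of the TSS (y axis) for *Gp1ba*, *Gp1bb*, *Gp9* and *Gp5* (x axis) in the FLI1, RUNX1 and input libraries. Points are single libraries, bars are exact 95% Poisson intervals and dashed lines are the medians of 21348 protein-coding genes (2.21 for FLI1, 2.26 for RUNX1 and 1.84 for input). The FLI1 points lie between 4.45 and 7.34, all above their input points, while the RUNX1 bars are wide.

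RUNX1 was highest at *Gp9* and lowest at *Gp1bb*. Within 2 kb of the TSS, *Gp9* held 23 RUNX1 reads (5.79 RPM, 3.67 to 8.68), 2.37 times the input level (1.39 to 3.94). *Gp1ba* held 20 reads (5.03 RPM, 3.07 to 7.77), a ratio of 1.89 (1.07 to 3.18). The intervals of both ratios lie above 1. *Gp5* held 12 reads (3.02 RPM, 1.56 to 5.27) at a ratio of 1.73 (0.822 to 3.38). *Gp1bb* held 6 reads (1.51 RPM, 0.554 to 3.29) at a ratio of 0.530 (0.187 to 1.22), and the ratio was 1.08 with the TSS of the shorter transcript and 1.01 within 1 kb. A difference from input was not detectable at *Gp5* and *Gp1bb* at this depth. The call was reached by 3 of 4 members and by 33.7% of all genes, whose median ratio was 1.19. Within 1 kb it was reached by 2 of 4 members and by 39.5% of all genes, since *Gp5* was then at 1.30, while *Gp9* was at 3.37 and *Gp1ba* at 2.98. Within 2 kb, neighbours in the order of the ratios had overlapping intervals, and *Gp9* and *Gp1bb* did not. The ratio of RUNX1 to FLI1 had overlapping intervals at all 4 genes. RUNX1 RPM was 0.897 of FLI1 RPM at *Gp9* (0.562 to 1.37) and 0.696 at *Gp1ba* (0.421 to 1.09), intervals that include 1. It was 0.411 at *Gp5* (0.211 to 0.726) and 0.339 at *Gp1bb* (0.124 to 0.748), where RUNX1 RPM lay below FLI1 RPM beyond counting error. These intervals do not cover differences between the antibodies, so a ratio of 1 does not mean equal occupancy.

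**Figure D2:**
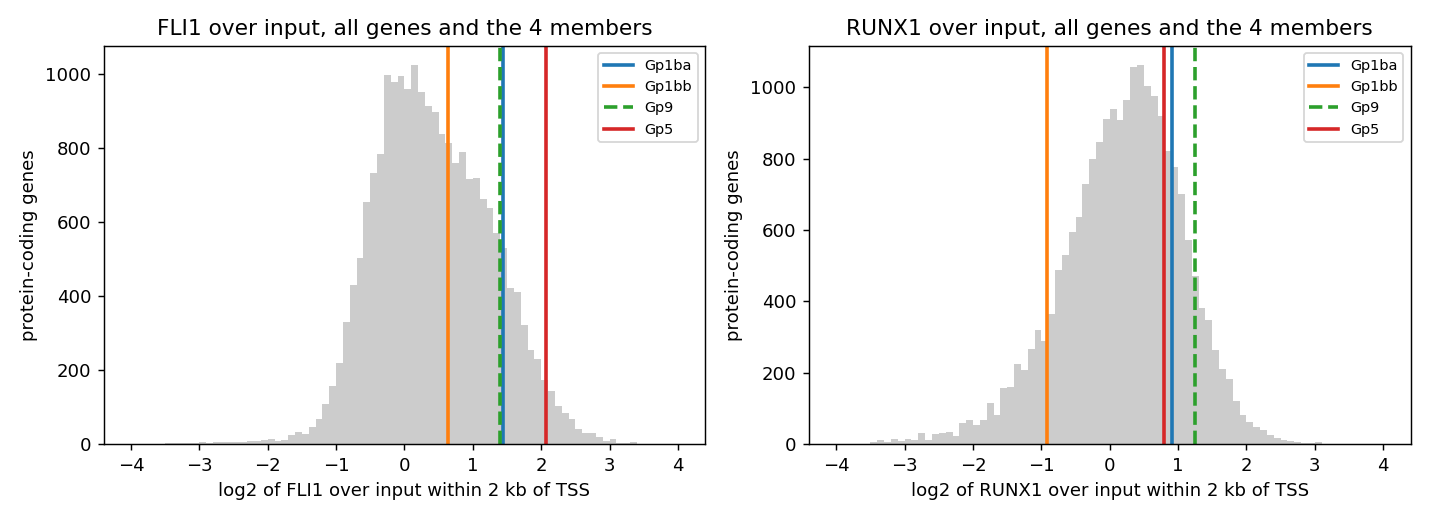
Histograms of the log2 ratio of FLI1 over input (left) and RUNX1 over input (right) within 2 kb of the TSS (x axis) over protein-coding genes with at least 10 input reads (y axis, number of genes), with a vertical line for each receptor gene. *Gp5* lies in the upper tail for FLI1 with 592 genes above it, and *Gp1bb* lies in the lower part for RUNX1 with 18931 genes above it.

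The place of highest FLI1 coverage was located within 2 kb of each TSS, and further FLI1 sites are given below. The summit, the base within 2 kb of the TSS that was covered by most reads extended to 150 bp, was at -55 bp from the TSS of *Gp1ba*, -72 bp from that of *Gp9* and -81 bp from that of *Gp5*, with negative values before the TSS. These 3 summits are intergenic and lie in the sequences printed above. The median distance between summit and TSS was 467 bp over 22225 gene names and 73 bp over the 2222 genes with the highest summits. At *Gp1bb* the summit was 667 bp inside the annotated gene, in the untranslated part of the first exon of the longer transcript, 370 bp before the start of the shorter transcript and 75 bp beyond the 3′ end of *Sept5*. The summit lay within 200 bp of the annotated TSS at *Gp1ba*, *Gp9* and *Gp5*, as it did at 36.6% of all genes and at 69.5% of the 2222 genes with the highest summits.

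Within 200 bp of the *Gp1ba* summit lay 231 FLI1 reads (202 to 263), 7 input reads (2.81 to 14.4) and 5 RUNX1 reads (1.62 to 11.7). This was the highest FLI1 count of the 4 summits, at 11.4 times the input level (5.45 to 28.7). The *Gp5* summit had 174 FLI1 reads (149 to 202) and 6 input reads, a ratio of 10.02 (4.51 to 27.7). The *Gp9* summit had 154 FLI1 reads (131 to 180) and 8 input reads, a ratio of 6.65 (3.29 to 15.7). The *Gp1bb* summit had 99 FLI1 reads (80.5 to 121) and 4 input reads, a ratio of 8.55 (3.24 to 32.0). The intervals of the 4 ratios overlapped. Over all genes the same window around the summit held a median of 25 FLI1 reads, and 1.71% of genes held as many as *Gp1ba*, 5.08% as many as *Gp5*, 7.19% as many as *Gp9* and 17.1% as many as *Gp1bb*. Each summit was chosen as the place of highest FLI1 coverage, in the members as in all genes, so its FLI1 ratio is a description and lies above that of the 2 kb window by construction.

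Plus-strand reads began mostly on the lower-coordinate side (left) of each summit and minus-strand reads on the other side. The summit is the base that extended reads cover most, so its choice favours this arrangement, and the counts are a description. At *Gp1ba*, 84 plus-strand reads began in the 150 bp to the left of the summit and 23 in the 150 bp to its right, while 17 minus-strand reads began to the left and 77 to the right. *Gp9* had 61 and 12 plus-strand reads and 18 and 58 minus-strand reads. *Gp5* had 61 and 16 on the plus strand and 23 and 56 on the minus strand. *Gp1bb* had 37 and 7 on the plus strand and 8 and 38 on the minus strand. Since the FLI1 file holds at most 1 read for each position and strand, the 84 reads at *Gp1ba* fill 56.0% of the 150 positions there, compared with 24.7% at *Gp1bb*. Counts at the strongest summits are limited by this filter and can understate the differences among the genes.

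**Figure D3:**
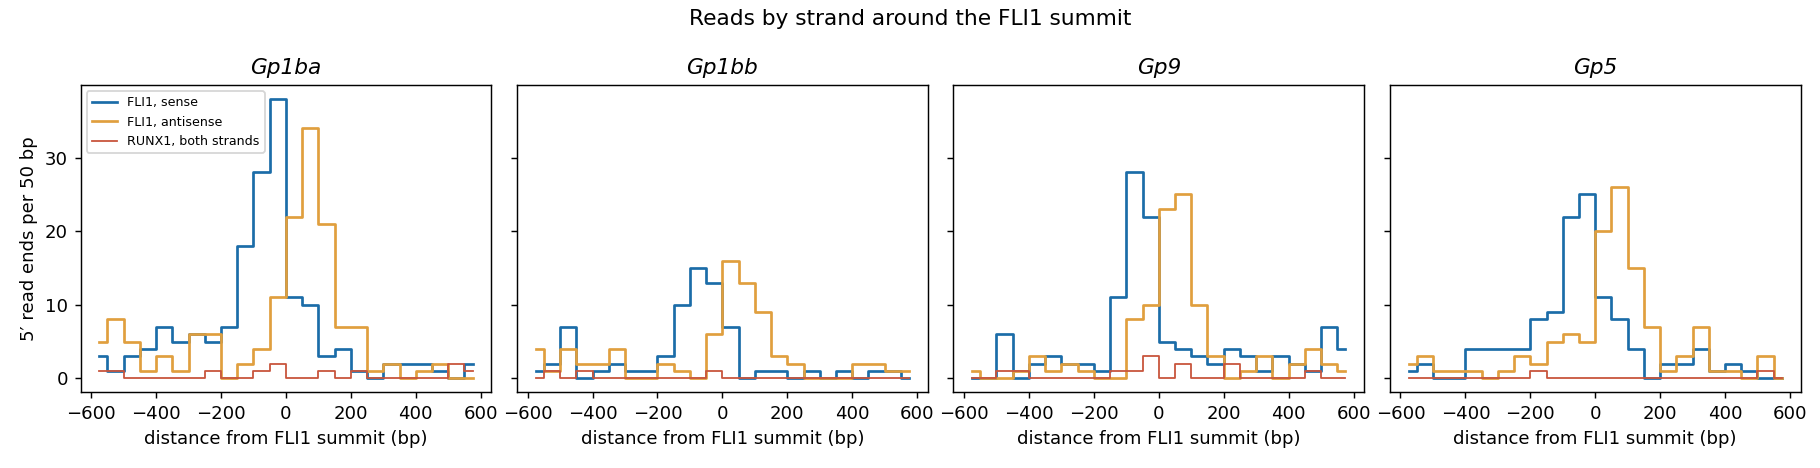
Number of 5′ read ends per 50 bp (y axis) by distance from the FLI1 summit in the direction of transcription (x axis, bp) at the 4 genes. Blue lines are FLI1 reads on the strand of the gene, orange lines FLI1 reads on the other strand and red lines RUNX1 reads of both strands. Reads on the strand of the gene peak before the summit and those on the other strand after it, at all 4 genes. The choice of summit favours this arrangement. Counts are not scaled to library depth. RUNX1 stays near the base line, but its library is far smaller, so its height cannot be compared with that of FLI1.

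RUNX1 reads were counted at the FLI1 summits as a measure that the summits were not chosen on. *Gp9* had 8 RUNX1 reads within 200 bp (3.45 to 15.8), compared with 1.80 per window of the same width in the flanks 1 to 2 kb away, and 5.47 times the input level (1.79 to 16.7). As many RUNX1 reads were found at 1.41% of all gene summits and at 7.43% of the 2222 highest FLI1 summits. The RUNX1 coverage of *Gp9* peaked 9 bp from the FLI1 summit, with 5 extended reads. *Gp1ba* had 5 RUNX1 reads, compared with 1.60 in the flanks, at a ratio to input of 3.91 (0.978 to 14.3), and as many were found at 7.54% of all gene summits and at 27.5% of the 2222 highest. *Gp1bb* had 1 RUNX1 read and *Gp5* had 0. Taking 3 reads as the limit for a count of 0, a rule that differs from the exact interval (up to 3.69 reads), RUNX1 could reach 0.755 RPM, which is above the 0.276 RPM of input at the same place, so RUNX1 at the *Gp5* summit was not detectable at this depth. By the place where reads began rather than by fragment centre, 4 plus-strand and 3 minus-strand RUNX1 reads lay within 200 bp of the *Gp9* summit.

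The letters under the summits differed among the genes. Within 100 bp of the *Gp1ba* summit lay 1 ETS match, CAGGAAG on the other strand at -16 bp from the TSS, and 3 GATA matches, the nearest centred 6.5 bp from the summit. The *Gp5* summit had 3 GATA matches, centred 4.5, 11.5 and 33.5 bp from it, and no ETS match. The *Gp9* summit had 1 RUNX match, TGCGGT on the other strand, centred 52.5 bp away, and the *Gp1bb* summit 1 GATA match at 16.5 bp and 1 RUNX match at 79.5 bp. The ETS sequences were thus found at 1 of 4 member summits, compared with 37.0% of all gene summits and 82.9% of the 2222 highest. GATA sequences were found at 3 of 4, compared with 23.2% of all summits and 12.2% of the 2222 highest. RUNX sequences were found at 2 of 4, compared with 17.7% and 18.5%, but within 50 bp at 0 of 4, compared with 9.98% and 10.1%. The sequence TGAGTCA was found at 0 of 4, compared with 3.41% and 2.43%. From 250 bp before to 50 bp after the TSS, ETS sequences were present at *Gp1ba*, GATA sequences at *Gp1ba*, *Gp1bb* and *Gp5*, and RUNX sequences at *Gp9* alone, with 2 matches. In the same window ETS sequences were present at 31.3%, GATA sequences at 27.5% and RUNX sequences at 21.6% of all genes. These matches describe letters, and absence of the listed letters does not bear on whether a factor was there.

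To see what surrounds the starts, the gene bodies with 20 kb to either side were divided into bins of 400 bp laid out from the TSS. A bin was called strong when it held at least 5 reads and at least 4 times the expected number, which was the highest of the scaled input of the bin, the scaled input within 5 kb and the library mean (10.9 FLI1 and 0.684 RUNX1 reads per bin). In the genome, 0.329% of bins with input reads were strong for FLI1 and 0.31% for RUNX1. The windows held 110 bins at *Gp1ba*, 106 at *Gp1bb*, 105 at *Gp9* and 108 at *Gp5*. Bins without input reads were kept in these windows, unlike in the genome share. Of the strong FLI1 bins below, 9 lay in the *Gp1ba* window, and of those 2 lay within 2 kb of its TSS. FLI1 had 17 strong bins over the 4 genes (30 with bins of 200 bp and 13 with bins moved by 200 bp), and 4 of 4 genes had at least 1 within 2 kb of the TSS, compared with 27.9% of all genes. RUNX1 had 4 strong bins (4 with bins of 200 bp and 6 with bins moved by 200 bp), and 0 of 4 genes had one within 2 kb of the TSS, compared with 11.8% of all genes. This count of 0 depends on the limit of 5 reads at this depth. Bins with 4 RUNX1 reads within 2 kb reached 4.05 times the expected number at *Gp1ba*, 4.80 and 5.21 at *Gp9* and 5.36 at *Gp5*. The study itself lists RUNX1 binding within 2 kb of the TSS of *Gp1ba* and *Gp9*. Anywhere in the gene body or the 20 kb beside it, 4 of 4 members had a strong FLI1 bin, compared with 53.5% of all genes, and 3 of 4 had a strong RUNX1 bin, compared with 46.9%. A bin strong for both factors was found at 1 of 4 members and at 14.3% of all genes.

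**Figure D4:**
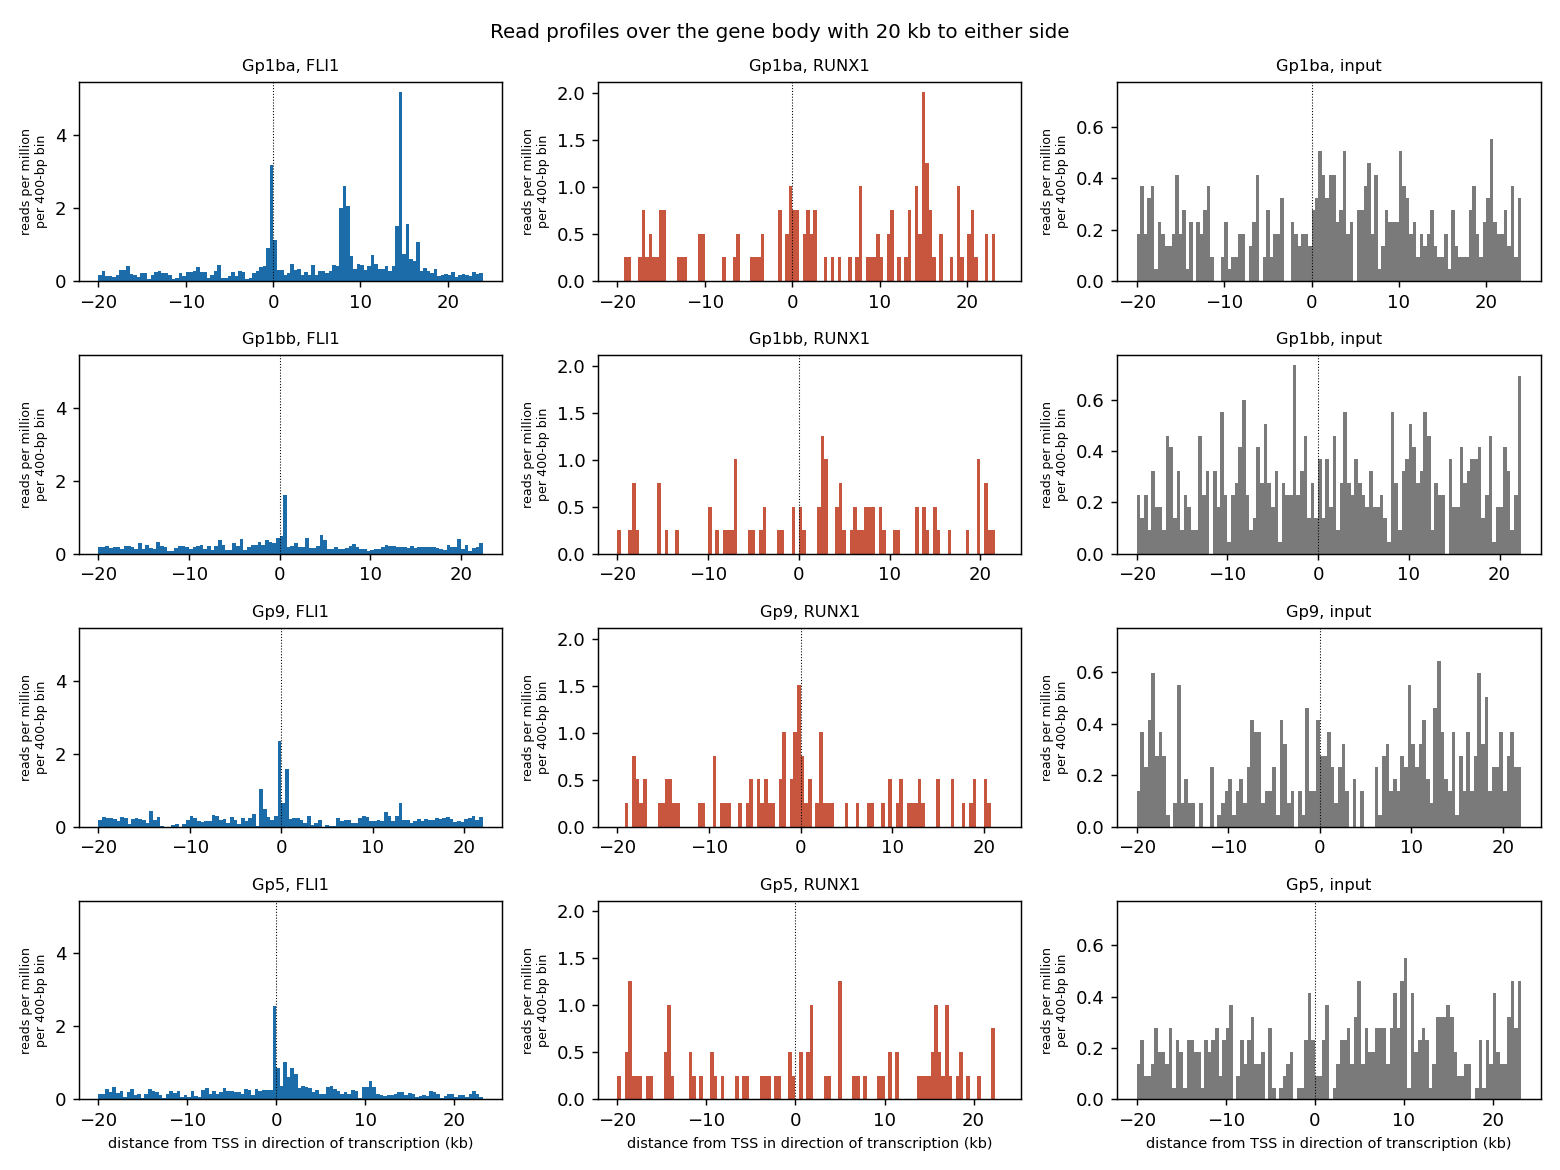
RPM per 400-bp bin (y axis, shared within a library) by distance from the TSS in the direction of transcription (x axis, kb) for each gene (rows) in the FLI1, RUNX1 and input libraries (columns). FLI1 has strong bins at the TSS of *Gp1ba*, *Gp9* and *Gp5*, and inside *Gp1bb* from 400 to 800 bp. *Gp9* and *Gp5* have further strong bins near the TSS. *Gp1ba* has further groups downstream, from 7600 bp at *Slc25a11* and *Rnf167* and from 14000 bp at *Pfn1*. The last reaches 5.18 RPM.

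*Gp5* had its strong FLI1 bins within 2 kb of the TSS and none farther out. The bin just before the TSS held 161 FLI1, 1 RUNX1 and 5 input reads, 11.1 times the expected FLI1 reads. The bin just after it held 55 FLI1 reads. A further 2 bins, 800 to 1200 bp and 1600 to 2000 bp into the gene, held 65 and 55 FLI1 reads respectively, at 4.49 and 4.66 times the expected number, with 5 and 0 input reads, and both have their centres in the second exon. A strong RUNX1 bin of 5 reads lay from -18800 to -18400 bp, in an intron of *Atp13a3*. The bin from 4800 to 5200 bp also held 5 RUNX1 reads, with 10 input reads, and at 2.74 times the expected number was not strong.

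*Gp9* had 3 separate strong FLI1 bins around its start. The bin before the TSS held 147 FLI1, 6 RUNX1 and 9 input reads, 5.64 times the expected FLI1 reads. The bin from 400 to 800 bp held 99 FLI1, 1 RUNX1 and 6 input reads (5.70 times), with a summit at 601 bp in the single intron of the gene. The bin from -2400 to -2000 bp held 64 FLI1, 2 RUNX1 and 3 input reads (4.64 times). Its summit, at -2075 bp, had 79 FLI1, 5 RUNX1 and 1 input reads within 200 bp. The sequences around both outer summits are shown because they hold matches to the searched letters of families without such a match at the promoter summit. These are an ETS match in the intron and a GATA match upstream, and the upstream sequence also holds a RUNX match. Capitals are used in the same way.
Gp9, intron, chr6:87728691-87728771, plus strand: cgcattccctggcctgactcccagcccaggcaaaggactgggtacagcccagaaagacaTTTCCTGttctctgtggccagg
Gp9, upstream, chr6:87726015-87726095, plus strand: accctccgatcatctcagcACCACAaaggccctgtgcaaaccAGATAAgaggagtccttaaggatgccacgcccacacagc

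*Gp1bb* had 1 strong FLI1 bin, from 400 to 800 bp into the gene, with 102 FLI1, 1 RUNX1 and 3 input reads, 5.72 times the expected FLI1 reads. Its highest bin was also the lowest of the 4 genes, and 2874 of 22367 genes had a higher FLI1 bin within 2 kb of the TSS, compared with 406 for *Gp1ba*, 895 for *Gp5* and 1210 for *Gp9*. A RUNX1 bin of 5 reads with 11 FLI1 and 6 input reads lay from 2400 to 2800 bp, beyond the 3′ end of the gene.

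*Gp1ba* had 9 strong FLI1 bins, of which 2 lay at its own TSS. The bin before the TSS held 200 FLI1, 4 RUNX1 and 3 input reads (12.8 times the expected FLI1 reads), and the bin after it held 71 FLI1 reads. The other bins lay nearer to the starts of neighbouring genes. A group of 3 bins, from 7600 to 8800 bp, held 126, 163 and 130 FLI1 reads where *Slc25a11*, a mitochondrial carrier gene, and *Rnf167*, a ubiquitin ligase gene, start in opposite directions. A group from 14000 to 15600 bp lay in and at the start of *Pfn1*, which encodes the actin-binding protein profilin. Its bin from 14400 to 14800 bp was the highest FLI1 bin in any of the 4 windows, with 326 FLI1, 2 RUNX1 and 2 input reads, 26.6 times the expected number, and the summit in it lies in an intron of *Pfn1*, 1031 bp after the TSS of that gene. The last strong FLI1 bin, from 16400 to 16800 bp, held 67 FLI1 reads. Beside the *Pfn1* summit, 2 bins held 8 RUNX1 reads (14800 to 15200 bp) and 5 RUNX1 reads (15200 to 15600 bp). The latter was strong for FLI1 too, with 99 reads, and was the single bin of the 4 windows that was strong for both factors. The DNA at this summit, on the strand of *Gp1ba*, which is opposite to that of *Pfn1*, is shown because it is the strongest FLI1 site near any receptor gene, and it holds 2 ETS matches and 1 RUNX match.
Pfn1 intron, chr11:70467075-70467155, plus strand: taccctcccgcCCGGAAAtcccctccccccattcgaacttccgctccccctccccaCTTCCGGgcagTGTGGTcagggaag

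Over the whole gene body with 20 kb to either side, where windows differ in length and levels are given per kb, *Gp1ba* had the highest FLI1 ratio, and its interval overlapped none of the other 3. It held 2986 FLI1 reads (1.09 RPM per kb), 124 RUNX1 reads (0.714) and 503 input reads (0.529), so that FLI1 was 2.05 times the input level (1.87 to 2.26) and RUNX1 1.35 times (1.10 to 1.65). Of 22006 genes, 18 had a higher FLI1 ratio, and the window includes the starts of *Slc25a11*, *Rnf167*, *Pfn1*, *Chrne* and *Eno3*. *Gp5* held 1655 FLI1 reads (0.610 RPM per kb), 1.22 times the input level (1.10 to 1.36), and 89 RUNX1 reads at 1.04 times (0.822 to 1.31). *Gp9* held 1523 FLI1 reads (0.581 RPM per kb) at 1.08 times the input level (0.975 to 1.20), and 95 RUNX1 reads at 1.07 times (0.848 to 1.33). For *Gp9* neither factor differed from input beyond counting error on this scale. *Gp1bb* held 1444 FLI1 reads (0.545 RPM per kb), 0.815 times the input level (0.741 to 0.897), and 85 RUNX1 reads at 0.760 times (0.598 to 0.955), and its input level per kb was above that of 97.2% of genes. With 5 kb in place of 20 kb *Gp1ba* was no longer highest, with FLI1 ratios of 2.26 at *Gp5*, 2.19 at *Gp1ba*, 1.99 at *Gp9* and 1.12 at *Gp1bb*, the last on the other side of 1. Whether this change of order exceeds counting error was not tested. The call of 1.5 was reached for FLI1 by 1 of 4 members and by 1.99% of all genes, and for RUNX1 by 0 of 4 and 2.3%. With 5 kb it was reached for FLI1 by 3 of 4 members and by 6.55% of all genes, and for RUNX1 by 1 of 4, *Gp9* at 2.08, and by 5.87%.

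Genes for ligands, partners and signalling of the receptor were counted in the same way within 2 kb of the TSS, and 32 of the 33 listed were found by name. FLI1 reached the call of 1.5 at 21 of 32, with a median ratio of 2.24, compared with 40.7% of all genes and a median of 1.28. RUNX1 reached it at 14 of 32, with a median of 1.40, compared with 33.7% and 1.19. By role, FLI1 calls were made at 3 of 9 ligands and counter-receptors, 2 of 3 proteases that shed the receptor or cleave its ligand, 4 of 5 cytoplasmic partners and 12 of 15 co-receptors and signalling genes. The highest FLI1 ratios were those of *Fermt3* (6.58, 5.05 to 8.72), which encodes the integrin activator kindlin-3, *Pik3ca* (6.23), a catalytic subunit of phosphoinositide 3-kinase, and *Ywhaz* (6.04), the 14-3-3 protein that binds the tail of GPIbα. The lowest were those of *Kng1* (0.518, 0.314 to 0.868), the kininogen gene, *Adamts13* (0.596, 0.417 to 0.859), which encodes the protease of von Willebrand factor, and *Fcgr3* (0.662, 0.316 to 1.46), an Fc receptor gene. *Fcgr3* had 12 input reads, and its interval includes 1. Among genes picked for their roles after their values were seen, *Vwf*, the ligand itself, had a FLI1 ratio of 1.24 and *Flna*, the filamin that anchors GPIbα to actin, 1.43, both under the call. *Flna* nevertheless had 1 strong FLI1 bin within 2 kb of its TSS, and *Vwf* had 0. The study lists FLI1 binding within 2 kb of its *Vwf* TSS, so a ratio under the call does not show that FLI1 was absent. The pathway and megakaryocyte marker lists share *Itga2b*, *Itgb3* and *Gp6*.

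**Figure D5:**
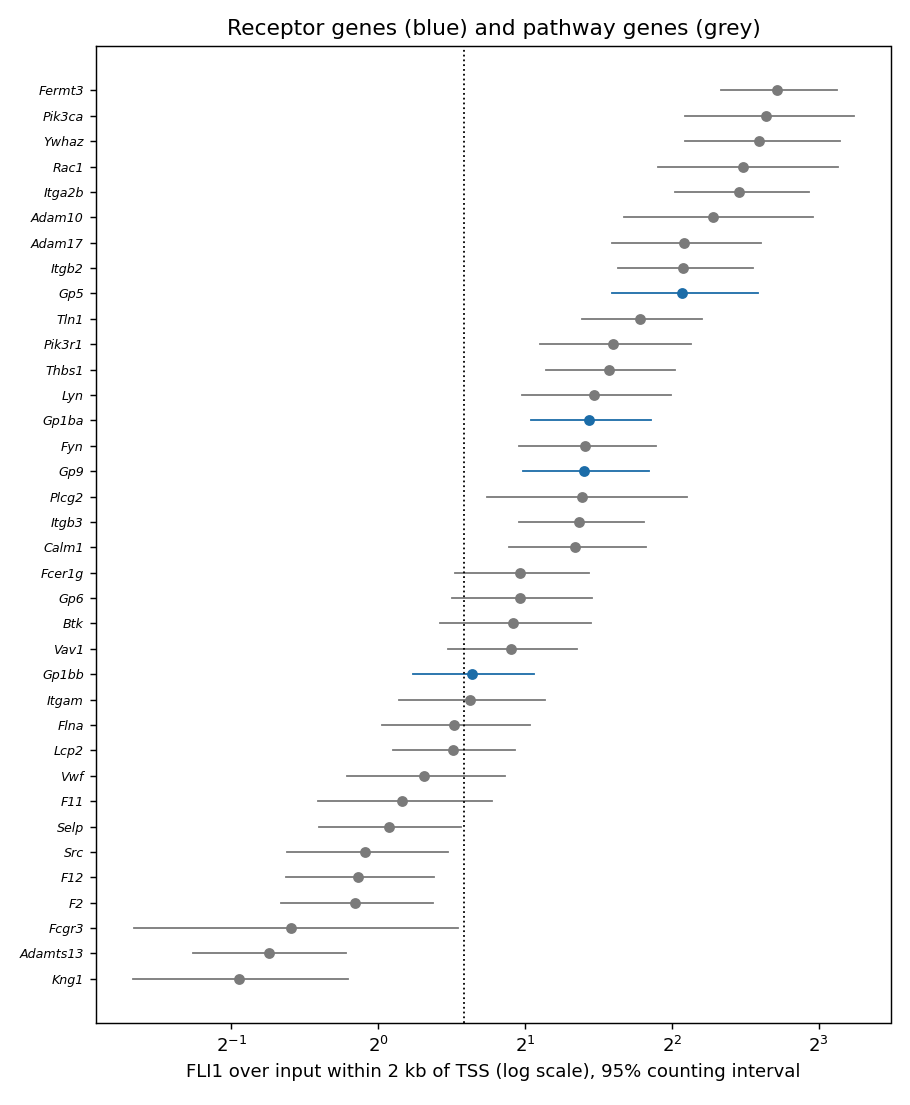
FLI1 over input within 2 kb of the TSS (x axis, log scale) for the 4 receptor genes (blue) and 32 pathway genes (grey), one gene per line and ordered by ratio, with exact 95% counting intervals and a dotted line at the call of 1.5. *Gp5* at 4.20 lies among the upper genes, *Gp1ba* at 2.71 and *Gp9* at 2.65 lie near each other in the middle, and *Gp1bb* at 1.56 lies beside the dotted line.

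Genes were also ranked by how near they lay to each member in log2(RPM + 0.5) of the 3 libraries within 2 kb of the TSS. The nearest were *Cct7*, *Rasal3* and *A530088E08Rik* to *Gp1ba*, *Cln3*, *6030468B19Rik* and *Trpm2* to *Gp1bb*, *Ski*, *Thbs1* and *Mtf1* to *Gp9*, and *4930455C21Rik*, *Ap1m1* and *Aaas* to *Gp5*, at Euclidean distances of 0.0220 to 0.108. With 3 libraries, likeness in this measure means similar read counts and no more. As a check of the labelled cell type, FLI1 reached the call at 7 of 8 megakaryocyte marker genes, 2 of 6 erythroid, 2 of 6 granulocyte, 1 of 4 macrophage, 0 of 5 hepatocyte and 0 of 4 lymphoid marker genes, compared with 40.7% of all genes, a share near which the erythroid and granulocyte counts lie. Strong FLI1 bins within 2 kb lay at 5 of 8 megakaryocyte, 1 of 6 erythroid and 3 of 6 granulocyte markers. The other marker groups had 0, and the share of all genes was 27.9%. ChIP reads at a marker gene do not measure its expression, and the share of other cells in these libraries was not tested.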

How the data were processed

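Read positions were analysed for 1 FLI1, 1 RUNX1 and 1 input library. Mapping by the authors used Bowtie and build mm9 (the version is not given in the sources used here) and kept non-redundant reads with a single location, and the deposited values are the start, end and strand of each read, of 50 bases in the ChIP files and 34 bases in the input. Read counts were made here. The input file departs from that filter, since 3.24% of its reads repeated a position and strand, and these were counted once. Of FLI1 and RUNX1 reads sampled from the files, 96.9% and 98.1% matched the reference genome NCBIM37 (mm9) with at most 3 mismatches. Each read was moved by 75 bp towards the centre of a 150-bp fragment, the length in the methods, counted, and divided by the library total and multiplied by 1000000 (RPM). Poisson and conditional binomial (Clopper-Pearson) 95% intervals were exact (SciPy 1.17.1). The counting code was tested on simulated reads. Without replicates no p-value was computed. MACS 1.4 and SICER 1.1, listed in the submitters' processing notes, were not run. Gene models were those of GENCODE M1, with the 5′ end of the gene record as TSS, and promoter and summit counts by gene name took the first record of a name. The genes named are the members, the pathway genes with the 3 highest and 3 lowest FLI1 ratios, the genes nearest to strong bins, and the 3 genes nearest to each member over the libraries. *Vwf*, *Flna*, *Itga2b*, *Itgb3*, *Gp6*, *Sept5*, *Atp13a3*, *Chrne* and *Eno3* are named outside this rule, for their roles or positions, after their values were seen. The members, lists and rules were chosen with earlier results of these data known. Alternatives changed the read shift, repeated input positions, scaling, strand, window, TSS, bins, extension and motif window.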

Additional observations from a re-analysis of the deposited data

How the results depend on the processing

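The FLI1 and RUNX1 ratios within 2 kb of the TSS and over gene bodies stayed within their counting intervals with no read shift, with repeated input positions kept, and with scaling to reads outside promoters. The TSS ratios also did so with shifts from the estimated fragment lengths (126 bp for FLI1 and 159 bp for RUNX1), with reads of either strand alone, and with the TSS of the other transcripts of *Gp1ba* and *Gp1bb*. The RUNX1 intervals are wide, and with plus-strand and minus-strand reads the RUNX1 ratio was 2.92 and 1.67 at *Gp9*. It was 0.304 and 0.842 at *Gp1bb*, and no RUNX1 call changed by strand. With minus-strand reads, however, *Gp1ba* (1.51) and *Gp5* (1.52) were barely above the call. Staying within an interval did not always keep the call of 1.5. For *Gp1bb* FLI1 fell under it with the TSS of Gp1bb-201 (1.47) and with plus-strand reads (1.32), and its RUNX1 ratio was on the other side of 1 with that TSS (1.08) and within 1 kb (1.01). The width of the window changed the ratios and the calls. Within 1 kb of the TSS the FLI1 ratio was 5.70 at *Gp1ba*, 4.56 at *Gp5*, 4.25 at *Gp9* and 2.43 at *Gp1bb*, so that *Gp1ba* and not *Gp5* was highest, and RUNX1 reached the call at 2 of 4 genes (*Gp5* 1.30). The FLI1 ratio with 5 kb around the gene body was 2.26 at *Gp5*, 2.19 at *Gp1ba*, 1.99 at *Gp9* and 1.12 at *Gp1bb*, where the value with 20 kb was below 1. The RUNX1 ratios with 5 kb were 2.08 at *Gp9* and 0.973 at *Gp1bb*, and the call was reached by 3 of 4 genes for FLI1 and 1 of 4 for RUNX1. These windows hold fewer bases away from the summits, and whether the changes of order exceed counting error was not tested. Strong FLI1 bins numbered 30 with bins of 200 bp, 13 with bins moved by 200 bp and 21 without input. Strong RUNX1 bins numbered 4, 6 and 6 under the same changes. Smaller bins are more numerous, and leaving out input can only lower the expected number, so the count without input could not fall. What else moved the counts was not tested. Within 50 bp of the summits RUNX sequences were found at 0 of 4 genes, compared with 9.98% of all genes. No paired analysis was possible because each antibody has 1 library, and no library could be left out. The RUNX1 depth, with 6 to 23 reads within 2 kb of a TSS, limits all RUNX1 values, and the file holds far fewer RUNX1 reads than the study lists.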

Other observations

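The bare ETS core GGAA, searched after the longer ETS sequences had been counted, was present within 50 bp of the FLI1 summit at 4 of 4 receptor genes, with 3 matches at *Gp1ba*, 2 at *Gp9*, 2 at *Gp5* and 1 at *Gp1bb*. The core was present there at 79.8% of all genes, with a median of 1 match, and the median at the 2222 highest FLI1 summits was 3.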
